A study of Mus musculus with 6 samples.

Results

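Housekeeping genes are transcribed in nearly every cell and are used as internal references when another transcript is quantified. The 10 described here, Actb, B2m, Gapdh, Gusb, Hprt, Hsp90ab1, Nono, Ppia, Rpl13a and Tbp, were taken as the non-control probes printed in 20 spots each whose identifier carries a RefSeq accession of the gene. This rule gave 1 probe a gene, 10 of 60915 target probes on the array. The rule did not use any measured level, but the genes were chosen with earlier results of these data known. Striatal RNA of 3 HuD-KO mice (Elavl4-/-) and of 3 WT littermates was hybridized to 1-color arrays of mouse lncRNAs and mRNAs, 1 array a sample. HuD is a neuronal RNA-binding protein that binds AU-rich elements and is encoded by Elavl4. The mice were adults. Their exact age, the sex and the background strain of these animals are not given in the sources used here. The knockout was germline, so HuD was missing in every tissue and throughout development. The labels number the samples but do not say that each came from a separate animal, so the p-values measure the spread between these samples, which may in part be technical. In bulk tissue, fewer cells of a type and less RNA per cell cannot be told apart.

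The 10 genes belong to separate processes. Actb encodes cytoplasmic beta-actin and Hsp90ab1 a constitutive cytosolic HSP90 chaperone. Gapdh is a glycolytic enzyme, Hprt an enzyme of purine salvage and Gusb a lysosomal glycosidase. Ppia encodes cyclophilin A, a prolyl isomerase, and Rpl13a a protein of the large ribosomal subunit. Tbp encodes the TATA-binding protein of the transcription initiation machinery, Nono a nuclear RNA-binding protein of paraspeckles, and B2m the light chain of MHC class I molecules. Because a quantitative PCR result is a ratio to such a gene, a change in the reference is carried into every transcript measured against it.

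Of the 5 members whose level differed between genotypes, the RefSeq promoter table for GRCm38.p6 held an entry for B2m, Gusb and Tbp, and the 250 bases upstream of their starts are printed so that their sequence stands beside their values. They were chosen after the values were seen. Capitals mark matches on either strand to TATAAA (the core of the TATA box), to CCAAT (the CCAAT box) or to GGGCGG (the GC box), none of which overlap here. B2m lay at chr2:122147437-122147686 on the + strand, Gusb at chr5:130003050-130003299 on the - strand and Tbp at chr17:15499638-15499887 on the + strand.
B2m: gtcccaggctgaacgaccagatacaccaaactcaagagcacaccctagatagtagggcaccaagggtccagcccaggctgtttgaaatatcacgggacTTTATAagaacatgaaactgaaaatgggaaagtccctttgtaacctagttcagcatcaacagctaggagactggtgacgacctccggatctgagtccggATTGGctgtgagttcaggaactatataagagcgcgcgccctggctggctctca
Gusb: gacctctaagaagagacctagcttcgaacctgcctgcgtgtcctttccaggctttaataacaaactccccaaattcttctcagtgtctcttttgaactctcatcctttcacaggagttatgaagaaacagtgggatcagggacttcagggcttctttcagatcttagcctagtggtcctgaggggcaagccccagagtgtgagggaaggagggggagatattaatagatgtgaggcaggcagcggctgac
Tbp: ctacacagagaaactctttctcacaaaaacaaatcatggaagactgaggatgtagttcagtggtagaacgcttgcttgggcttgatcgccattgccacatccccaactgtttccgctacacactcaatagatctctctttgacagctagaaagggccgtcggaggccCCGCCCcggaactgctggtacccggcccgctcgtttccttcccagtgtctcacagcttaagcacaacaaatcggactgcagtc
The B2m window, of a gene that was lower in HuD-KO, held 1 TATAAA and 1 CCAAT match, both on the reverse strand. Only exact matches were marked, and a near match to TATAAA closer to the start of the gene stayed in lower case. The Gusb window, also of a gene lower in HuD-KO, held none of the 3 motifs. The Tbp window, of the only member called higher in HuD-KO, held 1 GGGCGG match on the reverse strand. Over the 32851 promoters of the table, windows of the same length held TATAAA in 12.4%, CCAAT in 33.8% and GGGCGG in 32.7%. These matches describe the letters of the windows. The members' array probe sequences, and where in the transcript each lies, were not analysed here.

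The targeted gene was lower on the arrays labeled HuD-KO. Its probe is named only because the authors listed it as changed on these arrays, so this is no independent check of the labels. On the log2 scale used throughout, where 0 is the 75th percentile of the array's target spots, the listed Elavl4 probe read -5.57, -6.07 and -6.13 on HuD-KO arrays 1 to 3, where it was not well above background, and -1.09, -1.36 and -0.70 on WT arrays 1 to 3 (lower in the knockout by at least 15.5-fold, adjusted p = 0.001 in limma). The 75th percentile itself was 535, 547 and 615 intensity units for HuD-KO and 496, 464 and 446 for WT, so the knockout arrays were brighter before scaling. The Y-linked transcript Uty read 2.48 to 2.58 in HuD-KO and -3.09 to -2.73 in WT, so genotype and whatever this signal reflects cannot be told apart in any result below. The file headers give each array a code of 2 numbers, read here as its row and position on a slide. By this reading the 3 HuD-KO arrays and WT replicate 1 lay in the first row and WT replicates 2 and 3 in the second. Whether all arrays shared a slide was not checked.

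WT replicate 1 stood apart in an unusual way. Its level lay within 0.04 log2 units of the midpoint between WT replicates 2 and 3 for all 10 members, with a median distance of 0.0084 and a maximum of 0.0363, although those arrays differed from each other by up to 0.46. For Hprt, WT replicate 1 read 6.03 between 5.79 and 6.25, and for Nono it read 3.18 between 3.02 and 3.35. None of the other 5 arrays came as close to the midpoint of the other arrays of its group. The median distances were 0.0617, 0.0668 and 0.0850 for HuD-KO and 0.114 and 0.110 for WT replicates 2 and 3. The distances of WT replicates 2 and 3 follow in part from WT replicate 1 lying between them. WT replicate 1 lay between the other WT arrays for 8 of the 10 members and was the lowest WT array for Actb and Tbp. Over all 47857 tested probes it lay between them for 56.0%, against 21.6% to 35.7% for each other array within its group. The distance from the midpoint was under 0.04 for 26.2% of all tested probes on this array, against 11.5% to 19.7% on each other array, a limit chosen after the members' distances were seen. The median distance over all tested probes was 0.0896, against 0.112 to 0.125 for HuD-KO and 0.188 and 0.190 for WT replicates 2 and 3, so the closeness was less marked over the whole array than for the members. The labels do not say whether WT replicate 1 shares RNA with the other WT samples, and this was not tested. It is counted below as a separate sample, and the n, standard errors and p-values hold only if it was one.

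Each member was read 20 times on every array, so the reading error within an array was small. All 1200 spots were well above background, none was saturated, and 61 were left out because the scanner software marked them as outliers, leaving at least 16 a probe and array. The SD over the kept spots of a probe on 1 array ranged from 0.0104 to 0.0743 log2 units, and the standard error of their mean was at most 0.0166. The SD over the 3 arrays of a group ranged from 0.0122 for Actb in WT to 0.230 for Hprt in WT. Repeat spots share the RNA of their array and were not counted as replicates.

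At an adjusted p under 0.05, 5 of the 10 members differed between genotypes, where 30.4% of all tested probes did. Actb, B2m, Gusb and Hsp90ab1 were lower in HuD-KO, in a direction called for 14.4% of all probes, and Tbp was higher, in a direction called for 16.0%. The HuD-KO and WT arrays did not overlap for 7 of the 10 members, where 49.8% of all probes did not overlap. No member passed 2-fold, a size that 5.93% of all probes passed with an unadjusted p under 0.05. Without WT replicate 1, 14.9% of tested probes and 2 members were called, Tbp higher and Hsp90ab1 lower. The members' median difference was -0.13 and their median absolute difference 0.35, beside 0.04 and 0.29 over all tested probes.

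**Figure D1:**
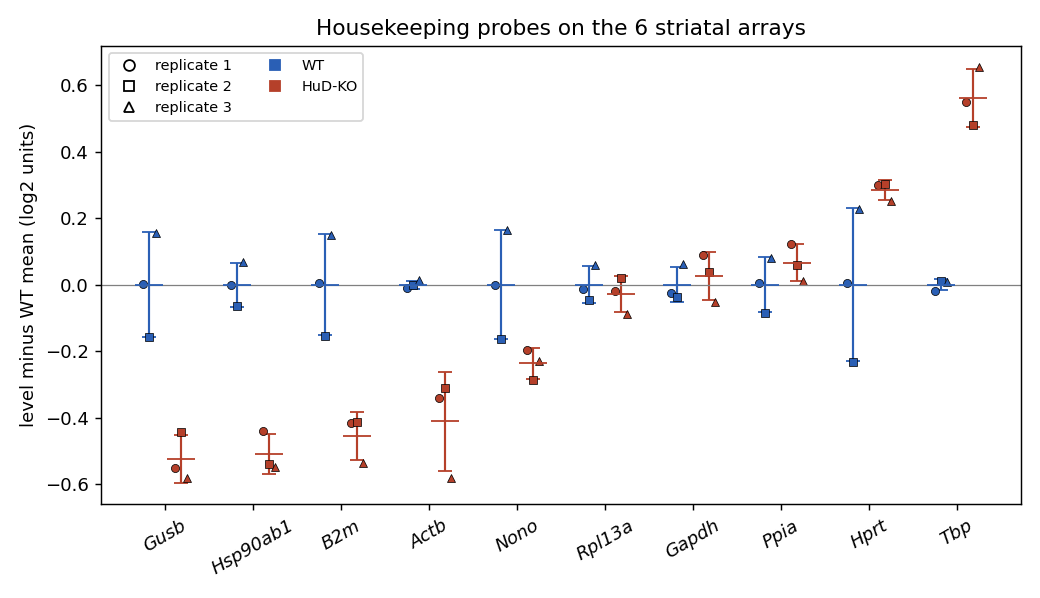
Level of each housekeeping probe on the 6 arrays, in log2 units relative to the WT mean of that probe, ordered by the difference between genotypes. Points are arrays (blue WT, red HuD-KO, shape by replicate number), horizontal bars are group means and error bars the SD over 3 arrays. Gusb, Hsp90ab1, B2m and Actb in HuD-KO sit below every WT array, and Tbp in HuD-KO sits above. WT replicate 1 lies within 0.04 of the midpoint of the other WT arrays, and between them for 8 of 10 members.

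Among the lower genes, Hsp90ab1 had the smallest adjusted p. Its level was 6.95, 6.85 and 6.84 in HuD-KO replicates 1 to 3 and 7.39, 7.32 and 7.45 in WT replicates 1 to 3. Every HuD-KO array read below every WT array. The difference was -0.51 (SE 0.081, n = 3 a group), a level 1.42-fold lower in HuD-KO, with a limma adjusted p of 0.0081. It stayed below 0.05 when any array was left out, with adjusted p-values from 0.0144 to 0.0395.

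Gusb, the lysosomal enzyme, read 0.52, 0.63 and 0.49 in HuD-KO and 1.08, 0.91 and 1.23 in WT. The lowest WT array, replicate 2, was still above the highest HuD-KO array. The difference was -0.53 (SE 0.107, n = 3 a group), 1.44-fold lower, with a limma adjusted p of 0.0159. Its call was lost without HuD-KO replicate 1 (adjusted p = 0.0595), HuD-KO replicate 3 (0.0586) or WT replicate 1 (0.0601), at differences of -0.51, -0.50 and -0.53.

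B2m, the class I light chain, read 4.46, 4.46 and 4.33 in HuD-KO and 4.88, 4.72 and 5.02 in WT. The WT arrays were spread over 0.30 log2 units and none overlapped with HuD-KO. The difference was -0.46 (SE 0.105, n = 3 a group), 1.37-fold lower, with a limma adjusted p of 0.0230. Leaving out WT replicate 1 gave an adjusted p of 0.0777, and leaving out any HuD-KO array gave 0.0571 to 0.0769.

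Actb, the beta-actin gene, read 7.05, 7.08 and 6.81 in HuD-KO and 7.38, 7.39 and 7.41 in WT. The WT arrays nearly coincided, and HuD-KO replicate 3 was the low one of its group. The difference was -0.41 (SE 0.099, n = 3 a group), 1.33-fold lower, with a limma adjusted p of 0.0260. Without HuD-KO replicate 3 the difference was -0.33 and the adjusted p 0.0606, and without WT replicate 1 they were -0.42 and 0.0825. The call held only without HuD-KO replicate 2 (adjusted p = 0.0455) among the 6 fits that each left out an array.

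Tbp was the member that went the other way. It read 0.44, 0.37 and 0.55 in HuD-KO and -0.13, -0.10 and -0.10 in WT, so the WT arrays lay close together and every HuD-KO array was above them. The difference was 0.56 (SE 0.081, n = 3 a group), 1.48-fold higher in HuD-KO, with a limma adjusted p of 0.0062. It passed the threshold without any single array, with adjusted p-values from 0.0142 to 0.0339.

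The X-linked members Hprt and Nono did not pass the test, although neither overlapped between groups. Hprt read 6.32, 6.32 and 6.27 in HuD-KO and 6.03, 5.79 and 6.25 in WT. The HuD-KO arrays nearly coincided, and WT replicate 3 reached almost to them. The difference was 0.28 (SE 0.129, 95% interval -0.03 to 0.60, limma adjusted p = 0.144), and without WT replicate 3 it was 0.40 with an adjusted p of 0.0437. Nono read 2.99, 2.90 and 2.96 in HuD-KO and 3.18, 3.02 and 3.35 in WT. All HuD-KO arrays were below all WT arrays, with WT replicate 2 the nearest. The difference was -0.24 (SE 0.106, 95% interval -0.49 to 0.02, limma adjusted p = 0.139). The genotypes also differed in Y-linked signal, as given above for Uty, and its part in these X-linked values was not tested.

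Gapdh, Ppia and Rpl13a overlapped between the groups. Gapdh read 8.94, 8.89 and 8.80 in HuD-KO and 8.83, 8.81 and 8.91 in WT, a difference of 0.03 (95% interval -0.17 to 0.22, limma adjusted p = 0.836). Ppia read 8.61, 8.55 and 8.50 in HuD-KO and 8.50, 8.40 and 8.57 in WT, a difference of 0.07 (95% interval -0.14 to 0.27, limma adjusted p = 0.589). Rpl13a read 3.94, 3.98 and 3.88 in HuD-KO and 3.95, 3.91 and 4.02 in WT, a difference of -0.03 (95% interval -0.22 to 0.16, limma adjusted p = 0.804). A difference inside each gene's own interval could not be told from none with 3 arrays a group.

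**Figure D2:**
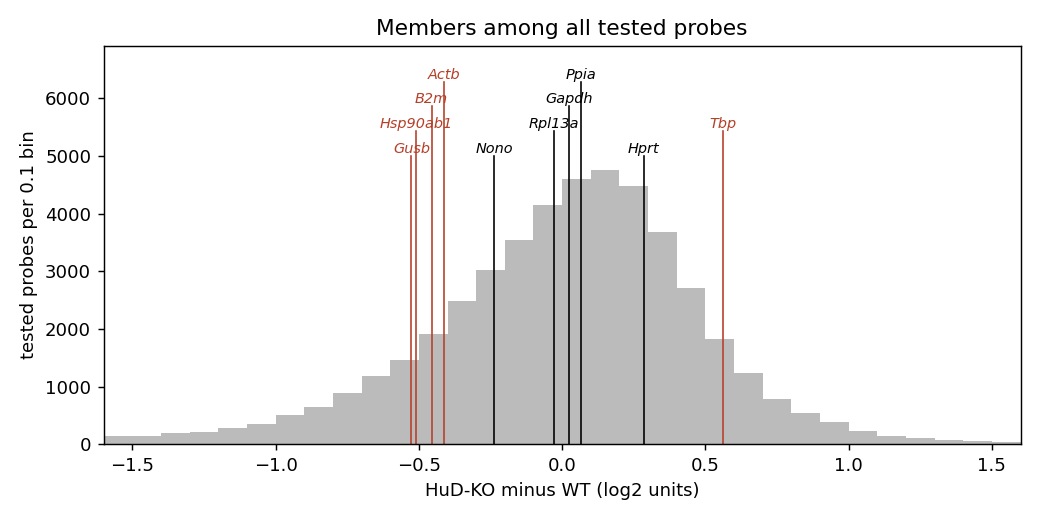
Differences between HuD-KO and WT (x axis, log2 units) of all tested probes, as counts per bin of 0.1 (grey bars, y axis), with the 10 members as vertical lines (red, adjusted p under 0.05, black, not). The members lie from -0.53 to 0.56, inside the bulk of the distribution.

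Several members moved together within a group. WT replicate 2 was the lowest WT array for 8 of 10 members and WT replicate 3 the highest for 9 of 10, where 39.3% and 42.7% of all tested probes showed that order. HuD-KO replicate 3 was the lowest of its group for 8 of 10, against 39.6% of all probes. Within the first slide row, where WT replicate 1 was the only WT array, the differences were -0.40 for Actb, -0.46 for B2m, -0.53 for Gusb, -0.51 for Hsp90ab1, -0.24 for Nono, 0.28 for Hprt and 0.58 for Tbp. Since WT replicate 1 lay near the WT mean of every member, these values had to be close to those over all arrays and say nothing about the slide row. With the slide row as a block, no member passed the adjusted threshold in limma (1 higher and 3 lower at an unadjusted p under 0.05), and adjusted p-values of the 5 called members were 0.083 for Tbp, 0.102 for Hsp90ab1, 0.140 for Gusb, 0.169 for B2m and 0.193 for Actb, in a fit that called 139 probes higher and 144 lower in all.

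The calls depended on what the arrays were scaled to, and so did the direction of Nono, Rpl13a, Gapdh and Ppia. The direction of the 5 called members and of Hprt was the same under every scaling run. When the arrays were scaled to Gapdh, 4 members were called lower and 1 higher, as with the 75th percentile. When scaled to Actb, the differences were 0.44 for Gapdh, 0.48 for Ppia, 0.38 for Rpl13a, 0.70 for Hprt and 0.97 for Tbp, all called higher, and no member was called lower. When scaled to Hprt, they were -0.70 for Actb, -0.74 for B2m, -0.81 for Gusb, -0.79 for Hsp90ab1 and -0.52 for Nono, all called lower, and Tbp, at 0.28, was not called (adjusted p = 0.266). With the mean of all 10 members as the reference, Tbp (0.69, adjusted p = 0.0069) and Hprt (0.41, 0.0226) were called higher, B2m, Gusb and Hsp90ab1 were called lower, and Actb was not called (-0.29, 0.0649). Without any scaling, an alternative chosen after the data were seen, no member was called lower and Gapdh, Hprt, Ppia and Tbp were called higher.

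**Figure D3:**
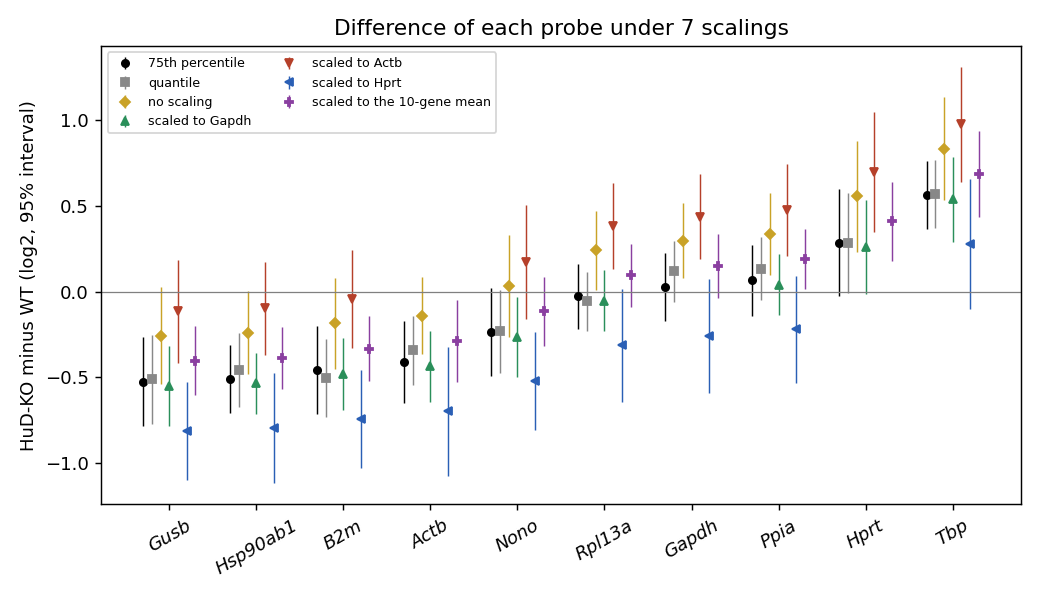
Difference between HuD-KO and WT of each member (y axis, log2 units, with 95% intervals from limma) under 7 ways of scaling the arrays. A gene has no value when it is itself the reference. Tbp stays above 0 under every scaling drawn, Gusb, Hsp90ab1, B2m and Actb stay below 0, and Nono, Rpl13a, Gapdh and Ppia change sign.

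The reference also moved the calls over the whole array. Scaling to the 75th percentile gave 7651 probes higher and 6888 lower in HuD-KO, 47.4% of calls being lower. With Gapdh as the reference 6278 were higher and 7056 lower (52.9% lower), and the median difference of all probes was 0.02. With Actb as the reference 23682 were higher and 2336 lower (8.98% lower), with the median shifted to 0.45. With Hprt as the reference 960 were higher and 9288 lower (90.6% lower), with the median at -0.24. The 10-gene mean gave 11583 higher and 4803 lower (29.3% lower, median 0.17), and no scaling gave 17161 higher and 3187 lower (15.7% lower, median 0.31). The calls of the same 6 arrays were thus mostly higher or mostly lower in HuD-KO according to which of these genes served as the reference. Scaling to a gene subtracts that gene's own difference from every probe. The shifts of the median therefore follow from the members' differences given above and are no separate result.

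**Figure D4:**
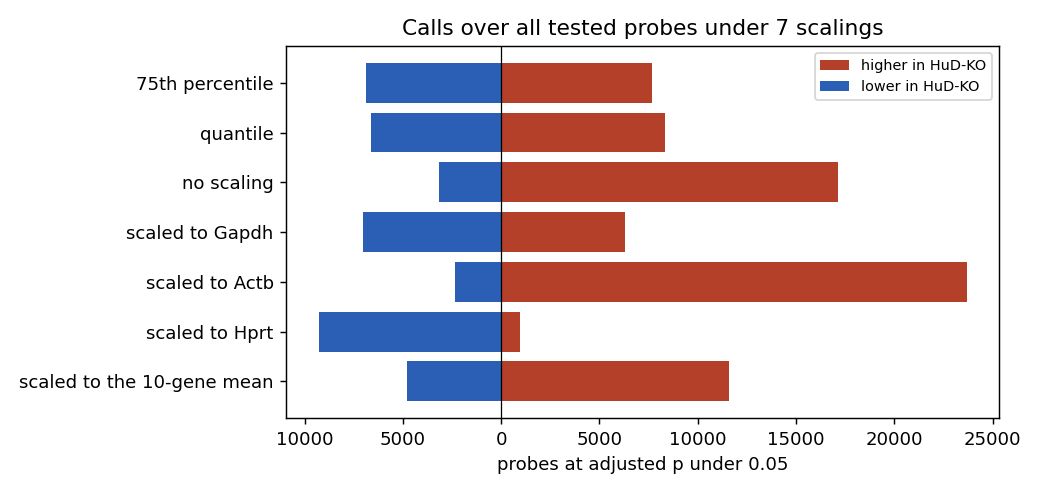
Number of probes called higher (red, right) or lower (blue, left) in HuD-KO at a limma adjusted p under 0.05, for each of 7 scalings. With Actb as the reference 23682 probes are called higher, and with Hprt as the reference 9288 are called lower.

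Ratios between members within an array do not depend on that choice. The members' differences under scaling to Gapdh, Actb or Hprt are the same values as their ratios to that gene. The log2 ratio of 17 of the 45 gene pairs differed by over 0.5 between genotypes, and 3 differed by over 1, a count that fell to 1 with normexp and quantile normalization and was 2 to 4 with an array left out. These 3 were the ratios of B2m, Hsp90ab1 and Gusb to Tbp, with differences of -1.02, -1.07 and -1.09. The log2 ratio of Hsp90ab1 to Tbp lay between 6.30 and 6.51 on the HuD-KO arrays and between 7.42 and 7.56 on the WT arrays. The 6 ratios among the 4 lower genes changed by -0.02 for Gusb to Hsp90ab1, 0.04 for Actb to B2m, 0.05 for B2m to Hsp90ab1, 0.07 for B2m to Gusb, 0.10 for Actb to Hsp90ab1 and 0.11 for Actb to Gusb. Ratios among Gapdh, Ppia and Rpl13a changed by -0.04 for Gapdh to Ppia, 0.05 for Gapdh to Rpl13a and 0.09 for Ppia to Rpl13a. These ratios rest on no test and share their genes.

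Each gene was then set against the other 9. Its log2 ratio to them, averaged, differed between genotypes by 0.76 for Tbp, 0.45 for Hprt, 0.21 for Ppia, 0.16 for Gapdh and 0.10 for Rpl13a, and by -0.13 for Nono, -0.32 for Actb, -0.37 for B2m, -0.43 for Hsp90ab1 and -0.45 for Gusb. The mean SD of these ratios over the 6 arrays was lowest for Rpl13a (0.201), Gapdh (0.208), Nono (0.209) and Ppia (0.215), which lay within 0.02 of each other, and highest for Hprt (0.309) and Tbp (0.438). By this measure, which is relative to the 10 genes chosen and includes the genotype difference, Tbp and Hprt varied most and Rpl13a, Gapdh, Nono and Ppia least. The order was another within a group. Over the HuD-KO arrays alone the mean SD was 0.141 for Tbp, 0.127 for Actb, 0.061 for Hprt and 0.061 for Ppia. Over the WT arrays alone it was 0.150 for Hprt, 0.109 for Tbp, 0.101 for Actb and 0.070 for Ppia.

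**Figure D5:**
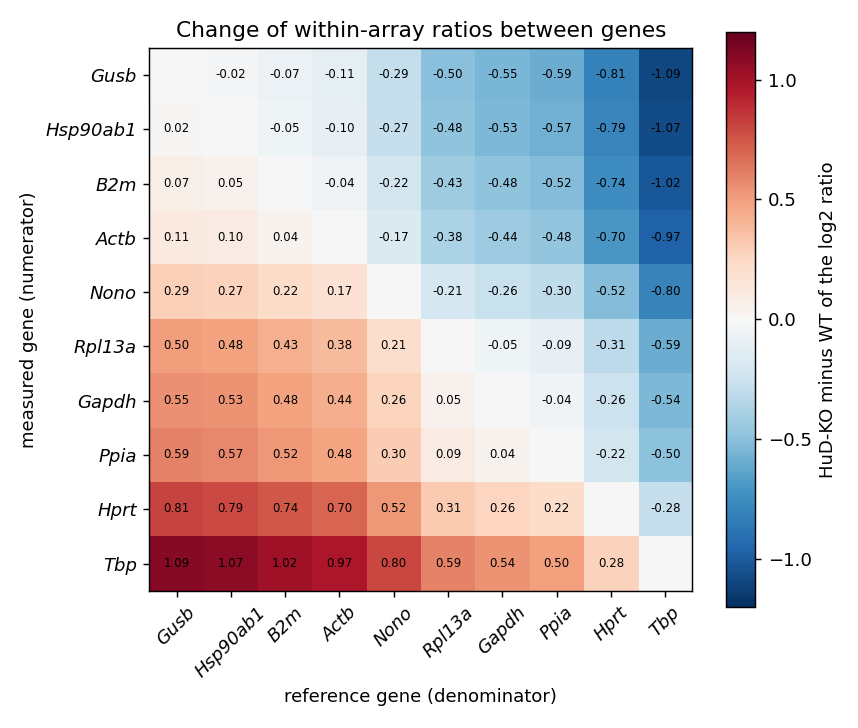
Difference between HuD-KO and WT of the log2 ratio between each pair of members on the same array, with the measured gene in rows and the reference gene in columns. Red is a higher and blue a lower ratio in HuD-KO. The largest changes are between Tbp and the group of Gusb, Hsp90ab1 and B2m, and ratios changed by at most 0.11 among Gusb, Hsp90ab1, B2m and Actb and by at most 0.09 among Rpl13a, Gapdh and Ppia.

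The array carries 5 further probes in 20 spots, which are no members. Tfrc, the transferrin receptor and another common reference gene, read 5.46, 5.45 and 5.61 in HuD-KO and 4.26, 4.21 and 4.38 in WT, a difference of 1.22 (SE 0.090, limma adjusted p = 0.0020). A further Tfrc probe, named only because the authors listed it as changed on these arrays and so no independent evidence, differed by 1.11 (limma adjusted p = 0.0042). Tuba1b, Gk and Ldhal6b differed by -0.02, -0.04 and -0.16 and G6pd2 by -0.44, none past the threshold. Of 158 other genes in the members' pathways or used as references, 5 had a named probe, and the names come from the authors' lists of transcripts changed on these arrays, so their direction is no independent evidence. Eno1, a glycolytic enzyme like Gapdh, differed by -1.42, H2-Q7, a class I heavy chain of the kind that pairs with B2m, by -1.46, and Xdh, an enzyme of purine breakdown, by -1.13 (limma adjusted p = 0.0024, 0.0047 and 0.0041). Of 32 cell type markers only Mbp, a myelin gene of oligodendrocytes, had named probes, 5 in all, with differences from -1.10 to -1.35, so the striatal identity of the tissue was not checked and the part of cell composition in the members' differences was not tested.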

How the data were processed

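Striatal RNA of 3 HuD-KO and 3 WT mice was measured on 1-color Cy3 arrays. Per the labels, samples were depleted of rRNA and amplified from oligo(dT) and random primers. Spot intensity was read from the deposited output of the scanner. Per the file headers, this intensity was corrected within each array for local background and for a spatial trend, the dimmest spots were given a surrogate, and arrays were not normalized to each other. Its outlier, saturation and background marks, other values of the deposited files, were used as filters. limma is named in the submitters' processing notes. The authors also deposited lists of transcripts past 2-fold with t-test p-values, FDRs and folds. Only the probe names, gene symbols, transcript identifiers and chromosomes of these lists were used.

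Outlier-marked spots were left out, spots of a probe were averaged after log2, and the array's 75th percentile over target spots was subtracted. Probes well above background on all 3 arrays of at least 1 group were tested (47857 of 60915, 44487 of them on all 6 arrays; 65 had no kept spot on some array) by lmFit and eBayes of limma 3.58.1, run in R 4.3.3, two-sided and with no covariate, with Benjamini-Hochberg adjustment over all tested probes. The smallest exact permutation p of 3 arrays against 3 is 0.1. The number of arrays limits the precision. The test was tried on simulated data, but the outcome is not given here and is not used as support. Python 3.11.15, pandas 2.3.3, numpy 2.4.6 and matplotlib 3.10.9 made the tables and plots. Accessions were matched to the RefSeq annotation of GRCm38.p6, and promoters taken from RefSeq for the same build (8 of 10 members had an entry).

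The named genes are all 10 members, Elavl4, and those genes of 11 pathway and reference lists and 7 marker lists that had a named probe, with at most 3 values a list (1 listed gene is not reported here); Uty, the other 20-spot probes and the promoters were added after their values were seen. The members and lists were chosen with earlier results of these data known. Samples were grouped by genotype label, and the replicate numbers only name samples: deviations of same-numbered arrays correlated at -0.03, -0.06 and -0.13. Alternatives changed the percentile, normalization, background correction (normexp with an offset of 50, or a floor of 5), filters, spot handling, test, weights, blocks, arrays and reference gene.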

Additional observations from a re-analysis of the deposited data

How the results depend on the processing

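The result counts were 7651 probes higher and 6888 lower over the array, 1 member higher and 4 lower, no member past 2-fold, and 17 gene pairs with a ratio changed by over 0.5. The last 2 counts stayed within 1.5 times under every alternative run for them (0, and 16 to 19). Of 482 values compared, 396 kept direction and side of the threshold or size.

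Leaving out 1 array in turn gave 3493 to 7148 probes higher, 3627 to 6518 lower, 1 to 2 members higher and 1 to 3 lower. Members lower fell to 1 (Hsp90ab1) without HuD-KO replicate 1, HuD-KO replicate 3 or WT replicate 1, and members higher rose to 2 without WT replicate 3. The replicate block, whose numbers do not pair the samples, gave 2995 probes higher, 3533 lower and 1 member lower, with Hsp90ab1 at an adjusted p of 0.0480 and Tbp at 0.0416. The slide row as a block gave 139 and 144 probes, and 0 members in either direction in limma (at an unadjusted p under 0.05, 6871 probes and 1 member higher, 5693 probes and 3 members lower). Array weights gave 12743 probes higher and 2 members higher.

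Scaling to the 10-gene mean gave 11583 probes and 2 members higher. Scaling to Actb gave 23682 probes and 5 members higher, 2336 probes and 0 members lower. Scaling to Hprt gave 960 probes and 0 members higher. No scaling gave 17161 probes and 4 members higher, 3187 probes and 0 members lower. Direction turned for Gapdh (-0.26) and Ppia (-0.22) under Hprt, for Nono under Actb (0.17) and no scaling (0.032), and for Rpl13a under Actb (0.38), the 10-gene mean (0.094) and no scaling (0.24). Leaving out arrays, Gapdh ranged from -0.0073 to 0.063 and Rpl13a from -0.053 to 0.0010. At an unadjusted p under 0.05 in limma, Actb scaling and no scaling still gave 0 members lower, and Hprt scaling 0 higher. The cause was not tested.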
